A study of Mus musculus with 4 samples.

Results

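The change between embryonic stage E17 and postnatal stage PN2 that dental follicle and dental papilla had in common was measured in mouse tooth tissue by 2-colour Agilent oligonucleotide arrays. For each gene the log2 ratio of the PN2 signal over the E17 signal was taken in the follicle (DF) and in the papilla (P), and the mean of both ratios is its common stage change. A gene belonged to the common change if both ratios had the same sign, which held for 8210 of 14238 genes tested, 3929 higher (27.6%) and 4281 lower (30.1%) at PN2. Those past 2-fold in each tissue numbered 169 (1.19%), of which 91 were higher (0.639%) and 78 lower (0.548%) at PN2.

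The study holds PN2 follicle, PN2 papilla, E17 follicle and E17 papilla, with 1 signal column for each and no replicate. Strain, sex, age in days, the tooth sampled and whether animals were pooled are not given in the labels used here, and no genetic change or drug treatment is named. A note of a whole embryo, a stem cell culture protocol and 1 entry reading PN3 also stand in the labels, and the tissue and stage in the array titles were followed. The tissue names were set against markers. The summed normalised signal of 12 follicle fibroblast genes was 43100 in PN2 follicle and 45183 in E17 follicle, against 4162 in PN2 papilla and 5750 in E17 papilla. That of 12 papilla genes was 26155 in PN2 papilla and 38761 in E17 papilla, against 5010 in PN2 follicle and 5324 in E17 follicle. Igfbp5 alone gave 24264 of the PN2 and 30739.5 of the E17 follicle sum. Some members went the other way. Scx was lower in follicle than papilla at PN2 (310.0 and 406) and E17 (293 and 402), and Foxf2 at E17 (472 and 1666). The papilla gene Lhx8 was higher in follicle at PN2 (1596 and 653) and E17 (3103 and 2659). The lists were chosen with earlier results of these data known.

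The follicle is the connective tissue sac that surrounds the tooth germ and later forms the periodontal ligament, cementum and socket bone. The papilla is the mesenchyme under the enamel epithelium, and its outer cells become the odontoblasts that secrete dentin. Around birth the mouse molar passes from shaping its crown to laying down mineral, while the follicle takes part in the bone remodelling that opens the eruption path.

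Median raw signals were 245 in PN2 follicle and 205 in PN2 papilla, against 290.3 in E17 follicle and 352 in E17 papilla. The 5th percentile of raw signal, a measure of the dim end of the array, was 25.7 in PN2 follicle and 32.4 in PN2 papilla, against 37.5 in E17 follicle and 66.4 in E17 papilla. The E17 columns were thus the brighter in both tissues before quantile normalisation, which gives all 4 columns the same distribution. All signals below are the normalised ones, averaged over the probes of a gene on the log2 scale, and a signal of 1 probe is not comparable with that of another. Each array was titled with a pair of tissues or stages, but identical signals recur across titles, so which columns shared a physical array cannot be told.

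The stage change was only weakly alike in follicle and papilla. Across the 14238 genes, which are not independent replicates, the follicle and papilla ratios gave r = 0.173 (Pearson) and rho = 0.198 (Spearman). The same sign in both tissues was seen for 57.7% of genes. Past 2-fold in opposite directions stood 74 genes, 35 with the follicle higher at PN2 and 39 with the follicle lower. The SD of a gene's ratio between the 2 tissues, as a root mean square over genes, was 0.59 log2 units, and the SD between probes of the same gene was 0.46 for the follicle ratio and 0.65 for the papilla ratio.

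Most genes past 2-fold in 1 tissue did not pass it in the other. In the follicle 545 genes were higher (3.83% of those tested) and 578 lower (4.06%) at PN2. In the papilla 933 were higher (6.55%) and 725 lower (5.09%). Of the genes higher in PN2 follicle, 16.7% were also past 2-fold higher in PN2 papilla, which is 9.75% of the papilla's higher genes. Of those lower in PN2 follicle, 13.5% were also past 2-fold lower in PN2 papilla, which is 10.8% of the papilla's lower genes. Ignoring size, 61.8% of the genes higher in PN2 follicle lay above 0 in the papilla, where 48.3% of all genes did, and 67.6% of those lower in PN2 follicle lay below 0 in the papilla, where 51.7% of all genes did.

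**Figure D1:**
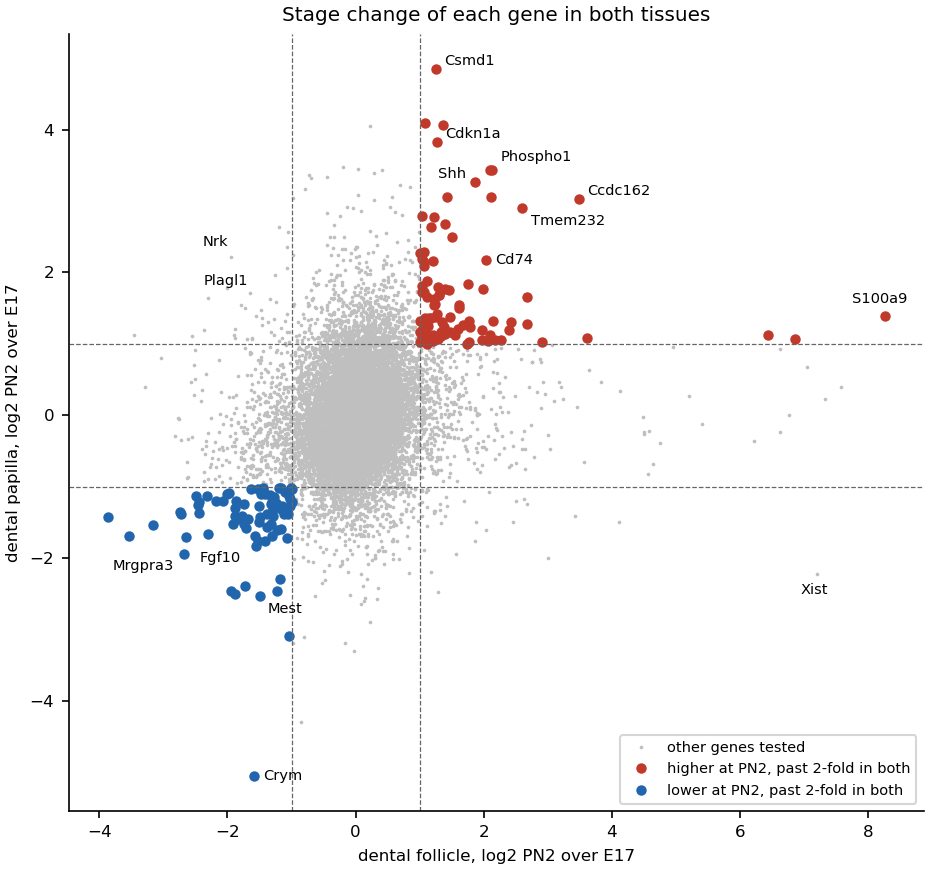
Each point is 1 gene, with its log2 ratio of PN2 over E17 in the dental follicle on the horizontal axis and in the dental papilla on the vertical axis; dashed lines mark 2-fold. The cloud has little slope (r = 0.173 across genes), and 91 genes lie past 2-fold in the upper right (red) and 78 in the lower left (blue), with S100a9 far out along the follicle axis and Crym far down the papilla axis.

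An additive limma fit of stage and tissue asked which mean changes were large against the disagreement between the tissues. It called 25 genes at an adjusted p under 0.05, 0.176% of those tested: 14 rose (0.0983%) and 11 fell (0.0773%) at PN2. All 25 were also past 2-fold in both tissues, 23 of them are measured by 1 probe, and 1404 genes (9.86%) had an unadjusted p under 0.05. The fit leaves 1 residual degree of freedom per gene beside a prior worth 12 degrees, so its p-values measure how far the 2 tissues differ and not the spread between animals, and a fault common to both columns of a stage is not covered. The limma fit called 0 genes with the prior taken without a trend on signal (1331 at an unadjusted p under 0.05), with median centring in place of quantile normalisation (1322) or without tissue in the fit (145). Ccdc162, Ltbp2, Phospho1 and Tspan8 were called in 7 of 10 other settings, and Cd74, Shh, Tmem232, Smad2 and Mrgpra3 in 6. The remaining called genes were kept in 5 or fewer. Angpt4, Cyp26a1 and Neat1 were kept in 2 only, the median of probes and the brightest probe. These 2 settings cannot alter the ratio of a gene with 1 probe, and they are part of every count given here.

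Of the genes of mineral and matrix, Phospho1, Ltbp2 and Tnn rose at PN2. Phospho1, the phosphatase that releases phosphate inside matrix vesicles as mineral first forms, had a signal of 1274 in PN2 follicle and 629 in PN2 papilla, against 292 in E17 follicle and 57.8 in E17 papilla. Both PN2 columns stood above both E17 columns. It rose with a mean log2 ratio of 2.78 ± 0.34 (SE; limma adjusted p = 0.0071), 2.13 in the follicle and 3.44 in the papilla. Here as in every whole-tissue result below, more cells of a type and more RNA per cell cannot be told apart.

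The microfibril protein gene Ltbp2, of the family that binds latent TGF-beta, had a signal of 420.3 in PN2 follicle and 2571 in PN2 papilla, against 98.0 in E17 follicle and 237 in E17 papilla. The stages did not overlap, and the gene rose by a mean log2 ratio of 2.77 ± 0.34 (limma adjusted p = 0.0071). Tnn, a tenascin of periosteum and other skeletal connective tissue, had 213 in PN2 follicle and 462 in PN2 papilla, against 33.5 in E17 follicle and 147 in E17 papilla. It rose by 2.16 ± 0.38 (limma adjusted p = 0.048), and the E17 follicle signal lies below the 5th percentile over the normalised columns (37.9), so the follicle ratio of 2.67 is the less exact. Among genes with no call, Col24a1, a fibrillar collagen of bone-forming sites, was past 2-fold in both tissues with ratios of 1.09 in the follicle and 4.09 in the papilla, and its 2 probes gave 0.50 and 1.68 in the follicle. P3h2, a prolyl hydroxylase of collagen chains, had 1.08 and 1.36.

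The mineral-related lists as a whole leaned to PN2, and more so in the papilla. Of 8 measured genes of bone matrix and mineral, 5 were higher and 1 lower in both tissues (62.5% and 12.5%, beside 27.6% and 30.1% of all genes). Only 1 was past 2-fold in both. Their median was 0.45 in the follicle and 1.57 in the papilla, where the medians over all genes were -0.01 and -0.02. Another 7 listed genes were not measured. Osteocalcin (Bglap) stood at 0.64 in the follicle and 2.42 in the papilla, bone sialoprotein (Ibsp) at 0.45 and 1.63, and the osteoblast factor Sp7 at 0.45 and 1.51. Ank, which carries pyrophosphate out of the cell, was the member lower in both, at -0.64 and -1.24. Of 12 odontoblast and dentin genes, 6 were higher and 0 lower in both tissues (50% and 0%), none past 2-fold in both, with medians of 0.44 and 0.89. Nestin (Nes), a marker of differentiating odontoblasts, had nearly the same ratio in both (0.67 and 0.70).

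Other matrix lists did not move together. The 22 collagens had 10 members higher and 8 lower in both tissues (45.5% and 36.4%, beside 27.6% and 30.1% of all genes). The median of their mean ratios was 0.13. Col1a1 had a signal of 51327 in the follicle at both stages with a papilla ratio of 2.21. The elastic fibre and proteoglycan list had 3 higher and 7 lower of 18 (16.7% and 38.9%). Its median was -0.59 in the follicle and 0.21 in the papilla. Versican (Vcan), the large proteoglycan of loose embryonic mesenchyme, was its member past 2-fold lower in both tissues: 534 in PN2 follicle and 2149 in PN2 papilla, against 1073 in E17 follicle and 4356 in E17 papilla. Within each tissue the PN2 signal was the lower, by -1.01 in the follicle and -1.02 in the papilla, while across tissues the stages overlapped. All 5 of its probes were lower in both tissues, from -1.17 to -0.73 in the follicle and from -1.35 to -0.42 in the papilla. Nid2, a basement membrane nidogen, stood at -1.45 and -1.05.

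**Figure D2:**
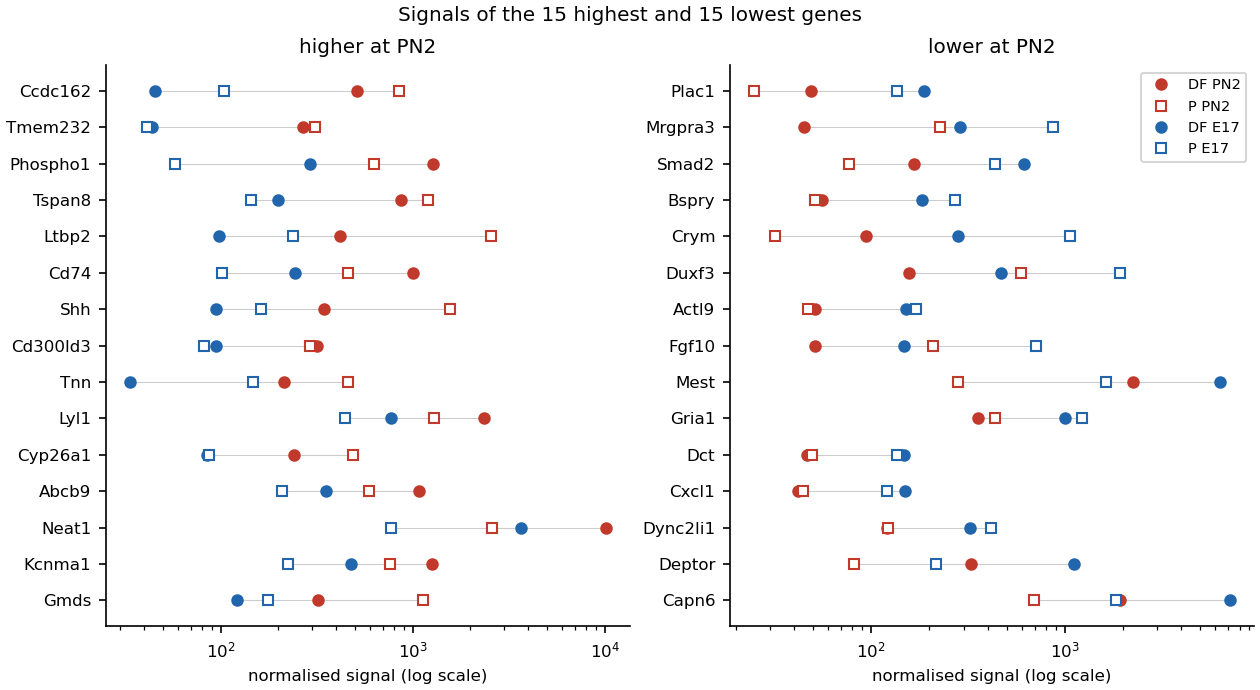
Normalised signal on a log axis for the 15 genes highest (left) and the 15 lowest (right) at PN2 by the smaller of their 2 ratios, with PN2 in red and E17 in blue, follicle as filled circles and papilla as open squares. In 14 of the 15 higher genes both PN2 signals lie above both E17 signals (13.1% of all genes), and in 10 of the 15 lower genes both lie below (11.4% of all genes). The genes were picked by the same signals, so their choice itself favours these counts. Neat1, Duxf3, Fgf10, Mest, Deptor and Capn6 overlap across tissues.

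Signal and hormone genes were found on both sides. Sonic hedgehog (Shh), the ligand that tooth epithelium sends to the mesenchyme, had a signal of 344 in PN2 follicle and 1567 in PN2 papilla, against 94.0 in E17 follicle and 163 in E17 papilla. The stages did not overlap, and Shh rose by 2.57 ± 0.35 (SE; limma adjusted p = 0.0152). Of the other genes of its pathway none passed 2-fold in both tissues: the receptor Ptch1 stood at -0.20 in the follicle and 0.22 in the papilla, and the target and effector Gli1 at -0.27 and 0.55. Ameloblast genes, from the epithelium that makes enamel, summed to 1293 in PN2 follicle and 10523 in PN2 papilla, against 936 in E17 follicle and 3099 in E17 papilla. Of the 6 measured, 3 were higher and 1 lower in both tissues (50% and 16.7%, beside 27.6% and 30.1% of all genes). The epithelial transcription factor gene Sp6 (0.85 and 2.17) supplied most of the papilla sums. Without it the sums were 764 in PN2 follicle and 1505 in PN2 papilla, against 642 in E17 follicle and 1097 in E17 papilla. Amelogenin (Amelx) stood at 0.26 and 1.73, while the enamel protease Klk4 was lower in both (-0.59 and -0.52) and Slc24a4, an ion exchanger of enamel cells, went in opposite directions (0.82 and -0.98). Of 15 epithelial genes, the splicing factor Esrp1 was past 2-fold higher (1.20 and 2.16) and keratin 15 (Krt15) past 2-fold lower (-1.71 and -1.58). In both tissues 8 of the 15 were higher and 3 lower (53.3% and 20%, beside 27.6% and 30.1% of all genes). Their sums were 6575 in PN2 follicle and 6853 in PN2 papilla, against 7319 in E17 follicle and 4048 in E17 papilla, and their part in the Shh result was not tested.

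Retinoic acid is cleared by the Cyp26 enzymes. Cyp26a1 had a signal of 241 in PN2 follicle and 490.3 in PN2 papilla, against 84.4 in E17 follicle and 86.4 in E17 papilla, so the stages did not overlap. It rose by 2.01 ± 0.36 (limma adjusted p = 0.0486), and was called in 2 of 10 other settings. Its relative Cyp26b1 stood at 1.47 in the follicle and 0.68 in the papilla, and the retinaldehyde dehydrogenase Aldh1a3 at 0.57 and 0.43. Of 20 thyroid and retinoid genes, 9 were higher and 2 lower in both tissues (45% and 10%, beside 27.6% and 30.1% of all genes). Their median of 0.06 changed sign with scaling once set against the median of all genes. Crabp2, a cytoplasmic carrier of retinoic acid, was the clearest member on the lower side, at -0.91 and -0.90.

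Crym encodes mu-crystallin, which binds thyroid hormone in the cytosol. Its signal was 94.3 in PN2 follicle and 31.9 in PN2 papilla, against 281 in E17 follicle and 1058 in E17 papilla. Both PN2 signals lay below both E17 signals, and it fell, with a mean log2 ratio of -3.31 ± 0.58 (limma adjusted p = 0.048), -1.58 in the follicle and -5.05 in the papilla. The PN2 papilla signal is under the 5th percentile, so the size of the papilla ratio is uncertain.

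Fgf10, a mesenchymal ligand that keeps dental epithelium growing, was 51.0 in PN2 follicle and 209 in PN2 papilla, against 148 in E17 follicle and 709.6 in E17 papilla. Each tissue was lower at PN2 by about the same ratio (-1.53 and -1.76), but the mean of -1.65 ± 0.33 did not pass the test (limma adjusted p = 0.0662). The feedback genes that FGF signals induce did not follow in both tissues: of Dusp6, Spry1, Spry2, Spry4, Etv4 and Etv5, 5 were past 2-fold lower in the papilla and 0 in the follicle, with a range of -2.57 to -0.45 in the papilla and -0.25 to 0.94 in the follicle. Of all genes, 5.09% were past 2-fold lower in the papilla and 4.06% in the follicle. Of 17 FGF genes, 2 were higher and 5 lower in both tissues (11.8% and 29.4%, beside 27.6% and 30.1% of all genes). The median of that list was -0.32.

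The TGF-beta transducer Smad2 had a signal of 167 in PN2 follicle and 76.7 in PN2 papilla, against 616 in E17 follicle and 434 in E17 papilla. The stages did not overlap, and it fell, at -2.19 ± 0.32 (limma adjusted p = 0.0152), from 1 probe. The BMP receptor gene Bmpr1b was also past 2-fold lower in both tissues (-2.74 and -1.36). The other 27 of 28 measured BMP and TGF-beta genes in that list, which does not hold Smad2, were not past 2-fold in both tissues, and the list median of 0.05 changed sign with the choice of probe. Its ligands Tgfb1 (0.47 and 1.79) and Bmp7 (0.49 and 1.24) were higher in both. Of 13 Notch genes, 4 were higher and 5 lower in both tissues (30.8% and 38.5%, beside 27.6% and 30.1% of all genes). The Notch ligand Jag2 was past 2-fold higher in both (1.98 and 1.05).

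Genes of leukocytes and of antigen presentation leaned to the higher side at PN2 in both tissues. Cd74, the invariant chain that escorts MHC class II molecules, had a signal of 1005 in PN2 follicle and 459 in PN2 papilla, against 244 in E17 follicle and 102 in E17 papilla. Both PN2 signals exceeded both E17 signals, the ratios were 2.04 and 2.17, and it rose by 2.11 ± 0.29 (SE; limma adjusted p = 0.0152). The class II chain H2-Aa had 762 in PN2 follicle and 149 in PN2 papilla, against 178 in E17 follicle and 68.6 in E17 papilla. Its stages overlapped across tissues, with ratios of 2.10 and 1.12 and both probes higher in each tissue. The chain H2-Eb1 had 113 in PN2 follicle and 120.3 in PN2 papilla, against 54.1 in E17 follicle and 58.5 in E17 papilla, close to 2-fold in both (1.07 and 1.04). H2-Ab1 stood at 1.77 in the follicle and 0.19 in the papilla. H2-DMa, which helps load peptide onto class II molecules, went in opposite directions (-0.55 and 0.91).

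Of the 15 antigen presentation genes, 9 were higher and 0 lower in both tissues (60% and 0%, beside 27.6% and 30.1% of all genes), with medians of 0.70 in the follicle and 0.81 in the papilla. The peptide transporter Tap1 stood at 1.94 and 0.81. Of the 5 class I genes, none passed 2-fold in both: H2-T23 (0.86 and 0.83) and H2-Q7 (0.70 and 0.66) were close in the tissues, and B2m was at 0.14 and -0.32. Class I heavy chains are near-identical copies, and their probes may not tell them apart. Of 18 interferon response genes, 8 were higher and 3 lower in both (44.4% and 16.7%), with a median of 0.33.

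Promoters of class II genes carry a conserved Y box, which is shown here because 4 of the 5 genes of class II and its chaperone were higher in both tissues. The letters CTGATTGG, which contain the reversed CCAAT box, were searched on both strands of the 250 bases upstream of each gene start in RefSeq GRCm38.p6, and the match is in capitals.
H2-Aa, chr17:34287824-34288073, minus strand: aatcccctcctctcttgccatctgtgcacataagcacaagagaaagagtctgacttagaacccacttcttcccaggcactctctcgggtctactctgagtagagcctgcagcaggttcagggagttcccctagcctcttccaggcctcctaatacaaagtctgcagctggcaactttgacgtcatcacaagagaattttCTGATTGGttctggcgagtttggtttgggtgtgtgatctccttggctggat
H2-Eb1, chr17:34305617-34305866, plus strand: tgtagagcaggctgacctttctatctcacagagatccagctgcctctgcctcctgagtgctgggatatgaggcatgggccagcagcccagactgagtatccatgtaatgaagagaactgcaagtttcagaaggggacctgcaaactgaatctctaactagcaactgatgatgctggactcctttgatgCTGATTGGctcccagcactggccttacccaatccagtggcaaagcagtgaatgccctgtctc
The match starts 51 bases before the gene start in H2-Aa and 62 bases before it in H2-Eb1. It was present in 7 of the 12 antigen presentation promoters in the table (58.3%) and in 1099 of 27025 promoters (4.07%). Those 7 were H2-Aa, H2-Eb1, H2-D1, H2-Q7, H2-T23, Psmb9 and Tap1. Cd74, H2-Ab1 and H2-DMa were not among them. Only 12 promoters were searched for the 15 measured genes, and whether these genes were among the 12 is not given here. A match is a description of the letters and not of binding.

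The macrophage and leukocyte list had 12 of 14 members higher and 0 lower in both tissues (85.7% and 0%, beside 27.6% and 30.1% of all genes). Its medians were 0.82 in the follicle and 0.66 in the papilla. Lysozyme (Lyz2) had a signal of 3825 in PN2 follicle and 453 in PN2 papilla, against 728 in E17 follicle and 197 in E17 papilla. Aif1, an actin-binding protein of macrophages, had 654 in PN2 follicle and 469 in PN2 papilla, against 278 in E17 follicle and 151 in E17 papilla. The lysosomal protease Ctss had 1215 in PN2 follicle and 245 in PN2 papilla, against 508 in E17 follicle and 94.6 in E17 papilla. These are the members past 2-fold in both tissues. The stages separated in Aif1, and overlapped across tissues in Lyz2 and Ctss, whose follicle level was the higher at each stage. Coro1a, an actin-binding protein of leukocytes, stood at 2.21 in the follicle and 0.59 in the papilla, and the common leukocyte antigen Ptprc at 1.25 and 0.41. The receptor Csf1r stood at 0.49 and 0.72 and Fcer1g at 0.56 and 0.54. The summed signal of the list was 45792 in PN2 follicle and 6376 in PN2 papilla, against 35033 in E17 follicle and 4212 in E17 papilla.

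Outside that list, Ms4a7, a membrane protein of macrophages, had 1402 in PN2 follicle and 917 in PN2 papilla, against 544 in E17 follicle and 55.0 in E17 papilla, and rose by 2.71 ± 0.47 (limma adjusted p = 0.048). Its 2 probes lay between 1.35 and 1.38 in the follicle and between 3.74 and 4.38 in the papilla. The macrophage lectin Clec10a (1.30 and 1.69), the interferon regulatory factor Irf5 (1.28 and 1.80), the leukocyte exchange factor Vav1 (2.67 and 1.28) and the B cell receptor component Cd79b (1.47 and 1.16) were past 2-fold higher in both tissues as well. So were Cd300ld3, of the CD300 family of leukocyte receptors (1.75 and 1.84, limma adjusted p = 0.0583), and Lyl1, a transcription factor of blood cells (1.61 and 1.55, limma adjusted p = 0.0515). These genes were picked for mention from the 91 after their values were seen. Of them, Cd79b, from 1 probe, was higher in papilla than in follicle at PN2 (2941 and 1088) and E17 (1313 and 393). The summed macrophage and leukocyte list was higher in follicle at both stages.

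Complement genes had 7 of 10 members higher and 1 lower in both tissues (70% and 10%, beside 27.6% and 30.1% of all genes). Their median of the mean ratio was 0.69. The 3 chains of C1q, made largely by macrophages, were all higher in both: C1qb at 1.29 and 1.07, C1qc at 1.17 and 0.89, and C1qa at 0.81 and 0.78. The C1 inhibitor Serping1 was the member lower in both (-0.44 and -0.37).

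Other blood cell lists behaved differently from the macrophage list. Neutrophil granule genes had 6 of 7 higher in both tissues (85.7%, beside 27.6% of all genes), but with a median of 6.62 in the follicle and 0.67 in the papilla. S100a9 was past 2-fold in both: 28419.8 in PN2 follicle and 199 in PN2 papilla, against 92.8 in E17 follicle and 75.8 in E17 papilla. The stefins Stfa1 (6.86 and 1.07) and Stfa2 (6.43 and 1.12), near-identical copies whose probes may not be specific, had the same imbalance. Summed neutrophil signals were 75576 in PN2 follicle and 1038 in PN2 papilla, against 707 in E17 follicle and 633 in E17 papilla. Erythroid genes had 6 of 7 in opposite directions or at 0, beside 6028 of all 14238 genes. Their medians were 1.58 in the follicle and -0.92 in the papilla. Osteoclast genes had 3 of 12 higher and 3 lower in both tissues (25% each, beside 27.6% and 30.1% of all genes). Their median of -0.02 changed sign with scaling. Their sums were 94090 in PN2 follicle and 6952 in PN2 papilla, against 84162 in E17 follicle and 8210 in E17 papilla. Endothelial genes leaned to the lower side, with 7 of 15 lower and 2 higher in both (46.7% and 13.3%, beside 30.1% and 27.6% of all genes). The lower ones included the receptor Tek (-0.80 and -0.93) and the sialomucin Emcn (-0.40 and -0.87). How far leukocyte content accounts for the leukocyte and antigen presentation values was not tested.

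**Figure D3:**
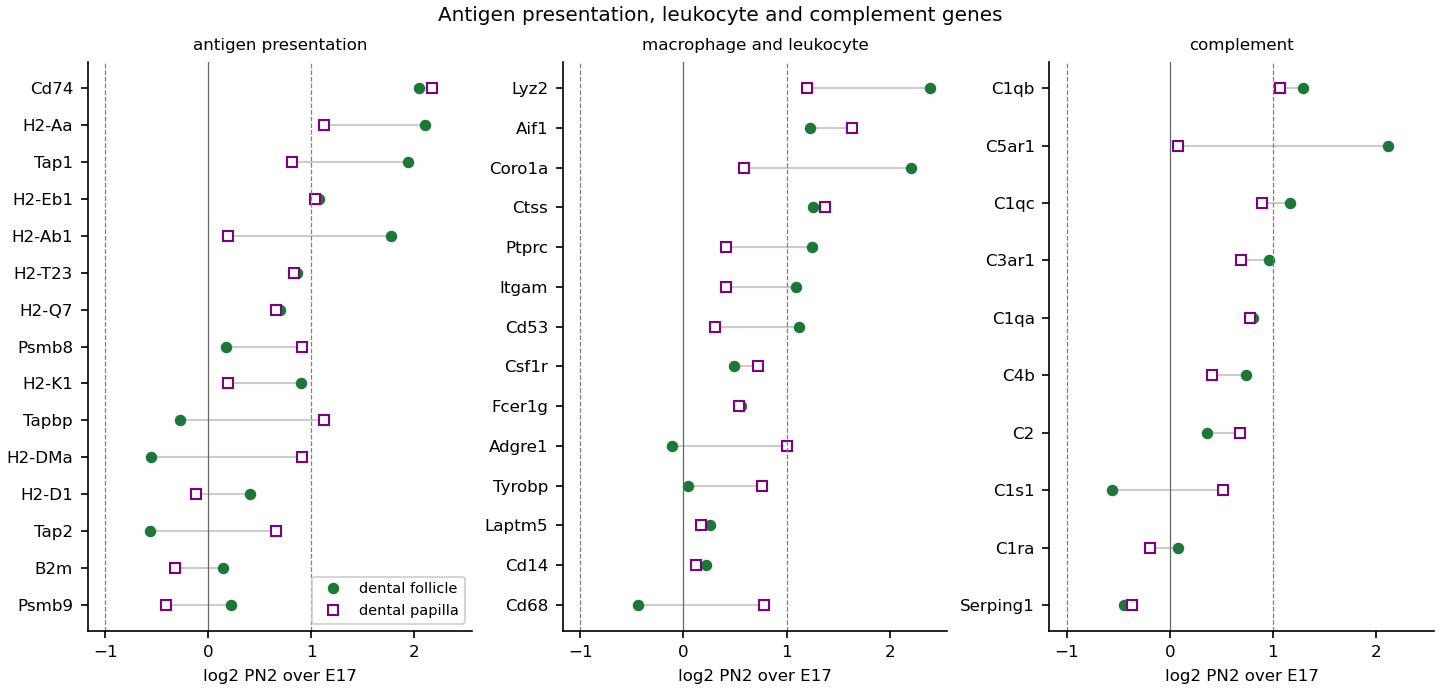
Log2 ratio of PN2 over E17 for each measured gene of 3 lists, with the follicle as filled green circles and the papilla as open purple squares; dashed lines mark 2-fold. In the macrophage and leukocyte list 12 of 14 genes lie above 0 in both tissues, in the antigen presentation list 9 of 15 and in the complement list 7 of 10, beside 27.6% of all genes. Cd74 has the highest mean ratio of the genes shown.

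Cell division genes were mostly lower in PN2 papilla, while their follicle values lay nearer 0, and none was past 2-fold lower in both tissues. Of 23 genes of G2 and M phase, 16 were lower and 1 higher in both (69.6% and 4.35%, beside 30.1% and 27.6% of all genes). The median was -0.23 in the follicle and -0.80 in the papilla. In the papilla 9 members passed 2-fold lower and in the follicle 0, where 5.09% and 4.06% of all genes did. The mitotic ubiquitin carrier Ube2c had 136 in PN2 follicle and 194 in PN2 papilla, against 218 in E17 follicle and 343 in E17 papilla. Both PN2 signals lay below both E17 signals, with ratios of -0.68 and -0.82. The spindle protein Tpx2 (-0.75 and -0.68) and Cdca8, of the chromosomal passenger complex (-0.61 and -0.76), were likewise close in the tissues, while the mitotic kinase Aurka (-0.09 and -1.54) and its relative Aurkb (-0.05 and -1.53) were lower mainly in the papilla. The signals of the list summed to 23911 in PN2 follicle and 16309 in PN2 papilla, against 23123 in E17 follicle and 32786 in E17 papilla, so the follicle sum was slightly higher at PN2.

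Of 23 S phase genes, 12 were lower and 1 higher in both tissues (52.2% and 4.35%, beside 30.1% and 27.6% of all genes). Another 10 went in opposite directions, and the medians of the list were -0.03 in the follicle and -0.77 in the papilla. Their signals summed to 32074 in PN2 follicle and 22979 in PN2 papilla, against 29957 in E17 follicle and 39660 in E17 papilla. The replication licensing factor Cdc6 had the lowest mean ratio (-0.49 and -1.62), followed by the ribonucleotide reductase subunit Rrm1 (0.07 and -1.60). The replication clamp Pcna stood at -0.21 and -1.24. Among 12 cell cycle inhibitors, 6 were higher and 2 lower in both tissues (50% and 16.7%, beside 27.6% and 30.1% of all genes). Cdkn1a, which encodes the cyclin-dependent kinase inhibitor p21, had a signal of 5616 in PN2 follicle and 12463 in PN2 papilla, against 2322 in E17 follicle and 875 in E17 papilla. The stages did not overlap and it rose by 2.55 ± 0.45 (SE; limma adjusted p = 0.048), 1.27 in the follicle and 3.83 in the papilla. Of the other 11 measured targets of p53, 3 were higher and 4 lower in both tissues, none past 2-fold in both. The higher ones were Pmaip1 (0.24 and 0.58), Bbc3 (0.24 and 0.26) and Aen (0.38 and 0.18), and the lower ones included Mdm2 (-0.01 and -0.16) and Ccng1 (-0.50 and -0.35). The inhibitor Cdkn1b was lower in both (-0.29 and -0.88).

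Many mitotic genes carry a cell cycle homology region (CHR) near the start, and the promoters of 2 members lower in both tissues are shown with it. The letters TTTGAA were searched on both strands of the same 250 bases, and the match is in capitals, on the reverse strand in Ube2c.
Ube2c, chr2:164769679-164769928, plus strand: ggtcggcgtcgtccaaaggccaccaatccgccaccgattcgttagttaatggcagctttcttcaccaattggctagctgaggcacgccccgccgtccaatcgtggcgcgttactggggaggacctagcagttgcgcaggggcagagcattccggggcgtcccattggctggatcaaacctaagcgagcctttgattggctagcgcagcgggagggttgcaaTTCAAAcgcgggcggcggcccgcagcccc
Cdc20, chr4:118437344-118437593, minus strand: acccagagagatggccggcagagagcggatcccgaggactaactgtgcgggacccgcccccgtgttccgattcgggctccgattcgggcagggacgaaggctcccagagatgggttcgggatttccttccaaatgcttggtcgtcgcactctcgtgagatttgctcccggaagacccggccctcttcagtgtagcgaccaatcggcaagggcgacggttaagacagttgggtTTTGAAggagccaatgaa
The match starts 29 bases before the gene start in Ube2c and 18 bases before it in Cdc20, the mitotic activator of the anaphase-promoting complex (-0.15 and -1.19). It was present in 7 of 19 G2 and M promoters in the table (36.8%), in 1 of 12 antigen presentation promoters (8.33%) and in 4398 of 27025 promoters (16.3%). The Y box letters were present in 6 of the 19 G2 and M promoters (31.6%).

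**Figure D4:**
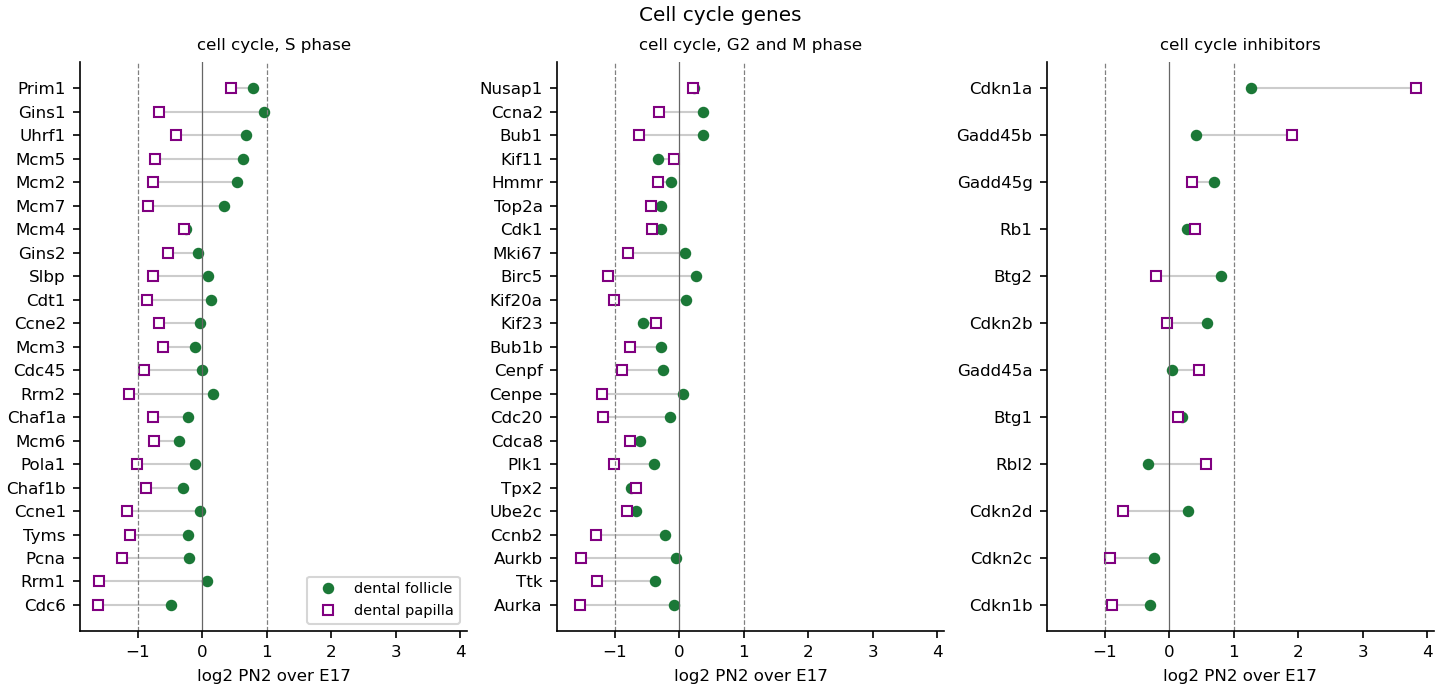
Log2 ratio of PN2 over E17 for genes of S phase, of G2 and M phase and for cell cycle inhibitors, with the follicle as filled green circles and the papilla as open purple squares; dashed lines mark 2-fold. Papilla values lie below 0 for most S and G2 or M genes (medians -0.77 and -0.80) while follicle values stay near 0 (medians -0.03 and -0.23), and Cdkn1a stands apart at 1.27 and 3.83.

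Fetal growth genes showed a single strong common member. Mest, a paternally expressed imprinted gene of embryonic mesoderm, had a signal of 2249 in PN2 follicle and 280.3 in PN2 papilla, against 6362 in E17 follicle and 1633 in E17 papilla. It was lower at PN2 within each tissue, and since the follicle level was the higher at both stages, the stages overlapped across tissues. It fell, at -2.02 ± 0.32 (SE; limma adjusted p = 0.0247). In the imprinted list, 7 of 16 genes were lower and 1 higher in both tissues (43.8% and 6.25%, beside 30.1% and 27.6% of all genes). Its medians were -0.58 in the follicle and 0.02 in the papilla. Igf2r, which clears IGF2, stood at -0.52 and -0.82, and Igf2 at -0.54 and -0.23. The growth inhibitor Cdkn1c (7458 in PN2 follicle and 5267 in PN2 papilla, against 24748 in E17 follicle and 1861 in E17 papilla), Plagl1 (-1.65 and 1.71) and H19 (-0.62 and 2.00) went in opposite directions in the 2 tissues.

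Capn6, an X-linked member of the calpain family that lacks protease activity, had 1919 in PN2 follicle and 692 in PN2 papilla, against 7134 in E17 follicle and 1835 in E17 papilla. It was lower within each tissue, overlapped across tissues, and fell, at -1.65 ± 0.29 (limma adjusted p = 0.048). Deptor, an inhibitor of the growth kinase mTOR, stood at -1.77 and -1.41, but its 2 probes gave -3.04 and -0.50 in the follicle and -2.62 and -0.21 in the papilla. Caveolin 1 (Cav1), the coat protein of caveolae, was past 2-fold lower in both tissues (-1.22 and -1.61), as was Tll1, a protease of the family that activates BMP ligands (-1.23 and -2.47).

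Among metabolic lists, oxidative phosphorylation and glycolysis leaned to the lower side, with medians of the mean ratio of -0.18 and -0.30. Of 28 oxidative phosphorylation genes, 15 were lower and 5 higher in both tissues (53.6% and 17.9%, beside 30.1% and 27.6% of all genes). Their medians were -0.12 and -0.21, with no member past 2-fold in both. Of 18 hypoxia and glycolysis genes, 9 were lower and 2 higher in both (50% and 11.1%), with medians of -0.42 and -0.10. The glucose transporter Slc2a1 stood at -0.41 and -0.96 and the liver type phosphofructokinase Pfkl at -0.59 and -0.60. Gapdh, often used as a reference, stood at -0.48 and -0.45, and the 10 housekeeping genes had a median of -0.03. In the clock list, Arntl, which encodes the activator BMAL1, was past 2-fold higher in both tissues: 174 in PN2 follicle and 193 in PN2 papilla, against 79.3 in E17 follicle and 75.0 in E17 papilla. Its partner Clock stood at 0.06 and -0.66, and the hour of collection is not given in the labels used here.

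Several of the highest genes belong to none of these groups. Ccdc162, a coiled-coil protein gene, had a signal of 511 in PN2 follicle and 849 in PN2 papilla, against 45.7 in E17 follicle and 104 in E17 papilla. The stages were far apart, and with 3.26 ± 0.32 it had the largest mean change and the smallest p among the 14 genes that rose (limma adjusted p = 0.00188). Tmem232 had 268 in PN2 follicle and 310.1 in PN2 papilla, against 44.1 in E17 follicle and 41.5 in E17 papilla, and rose by 2.75 ± 0.40 (limma adjusted p = 0.0152). The tetraspanin gene Tspan8 had 867 in PN2 follicle and 1203 in PN2 papilla, against 199 in E17 follicle and 144 in E17 papilla, and rose by 2.59 ± 0.32 (limma adjusted p = 0.0071). All 3 are known here from 1 probe.

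Neat1, the nuclear RNA that builds paraspeckles, had 10133 in PN2 follicle and 2588 in PN2 papilla, against 3684 in E17 follicle and 771 in E17 papilla, and rose by 1.60 ± 0.28 (limma adjusted p = 0.048). Gmds, the first enzyme of GDP-fucose synthesis, had 322 in PN2 follicle and 1125 in PN2 papilla, against 122 in E17 follicle and 176 in E17 papilla. Angpt4, a ligand of the endothelial receptor Tek, had 1378 in PN2 follicle and 2196 in PN2 papilla, against 587 in E17 follicle and 319 in E17 papilla. Both rose with a larger ratio in the papilla (limma adjusted p of 0.0437 for Gmds and 0.0486 for Angpt4). The calcium-gated potassium channel gene Kcnma1 (1.40 and 1.77) and the lysosomal peptide transporter gene Abcb9 (mean 1.56) did not pass the test, both with a limma adjusted p of 0.0539.

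On the lower side, Gria1, Mrgpra3 and Dct, known from neurons or pigment cells, stood among the 15 lowest. The list of Schwann cell and nerve genes leaned the other way, with a median of 0.36. Of its 10 measured genes, 5 were higher and 1 lower in both tissues (50% and 10%, beside 27.6% and 30.1% of all genes). Gria1, a subunit of AMPA glutamate receptors, had 355 in PN2 follicle and 435 in PN2 papilla, against 1008 in E17 follicle and 1229 in E17 papilla. The stages did not overlap, the ratios of -1.51 and -1.50 were nearly equal, and the limma adjusted p was 0.06. Mrgpra3, a receptor of itch-sensing neurons with close relatives in the genome, had 45.0 in PN2 follicle and 227 in PN2 papilla, against 288 in E17 follicle and 869 in E17 papilla, and fell, at -2.31 ± 0.32 (limma adjusted p = 0.0152). The melanin enzyme gene Dct (-1.68 and -1.46) and the chemokine gene Cxcl1 (-1.85 and -1.44) had PN2 signals of 41.8 to 49.6, near the 5th percentile, and did not pass the test (limma adjusted p of 0.271 and 0.281). The same holds for Plac1 (-1.94 and -2.46, 0.121), Actl9 (-1.56 and -1.84, 0.207) and Bspry (-1.73 and -2.40, 0.0697). Dync2li1, a subunit of the dynein that returns cargo along cilia, stood at -1.42 and -1.77 (0.0662).

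Genes with clone or predicted names made up 15 of the 78 lower genes (19.2%) and 5 of the 91 higher genes (5.49%), beside 5.44% of all genes tested. Of these 15 lower genes, 9 had a signal over 1000 in E17 papilla, so they are not dim. Those 9 had follicle ratios from -3.87 to -1.34 and papilla ratios from -1.71 to -1.11. BC061237 had 60.9 in PN2 follicle and 666 in PN2 papilla, against 704 in E17 follicle and 2169.9 in E17 papilla, and fell, at -2.62 ± 0.38 (limma adjusted p = 0.0152). Gm8165, Gm3161, 1700047E10Rik and 5031425E22Rik fell as well (mean ratios of -2.65, -2.17, -2.35 and -1.98), and so did Duxf3, of the repeated Dux family (-1.64 ± 0.29, limma adjusted p = 0.048). Probes of such genes may read near-identical copies, so these values may stand for 1 family and not for separate genes.

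Olfactory, vomeronasal and trace amine receptor genes, known from sensory neurons and used here as genes of low signal, leaned the same way. Of 373 tested, 232 were lower and 27 higher in both tissues, where 30.1% and 27.6% of all genes were. Their medians were -0.57 in the follicle and -0.26 in the papilla. Past 2-fold lower in both were 8 (2.14%, beside 0.548% of all genes), against 0 higher. The lower list was the dimmer one: its median highest signal was 327, beside 508 for the higher list and 468 for all genes, and 26 of 78 lower genes had a signal under the 5th percentile, against 20 of 91 higher genes. With genes cut into 4 equal bins of mean signal, from dim to bright, the lower genes numbered 43, 17, 11 and 7 and the higher genes 40, 20, 21 and 10, while the share of genes with the same sign was 57%, 57.2%, 57.3% and 59.2%. The part of the brighter raw E17 background in these lower values was not tested.

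A single probe stands behind 80.2% of the higher genes and 88.5% of the lower genes, beside 54.8% of all genes tested. Of the 27 shared genes with several probes, 26 had every probe in the same direction in both tissues and 6 had every probe past 2-fold, the exception in direction being Mxd1 with a papilla probe at -0.07. Both PN2 signals lay above both E17 signals in 74 of the 91 higher genes (13.1% of all genes) and below them in 50 of the 78 lower genes (11.4%), counts that the rule itself favours. The change was within 0.5 log2 units between the tissues in 46 higher and 49 lower genes, a count not taken over all genes. It was larger in the papilla in 50 of the 91 higher and 32 of the 78 lower genes, beside 8286 of all 14238 genes. Of the lower genes, 37.2% were past 2-fold below papilla in the follicle at both stages, as were 7.69% of the higher genes and 5.62% of all genes; 17.6% of the higher, 11.5% of the lower and 6.05% of all genes were past 2-fold above papilla in the follicle at both stages.

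At the edge of the rule the values run on without a gap. Just inside lay Pla2g12a (1.000 and 1.020) and 1700065I16Rik (-1.001 and -1.220), and just outside lay Bcam (1.081 and 0.999), the metalloproteinase inhibitor Timp1 (0.999 and 0.989) and Adamtsl1 (-1.536 and -0.987). Of the 91 higher genes 70 had a signal of 100 or more in both PN2 columns, and of the 78 lower genes 58 did in both E17 columns.

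**Figure D5:**
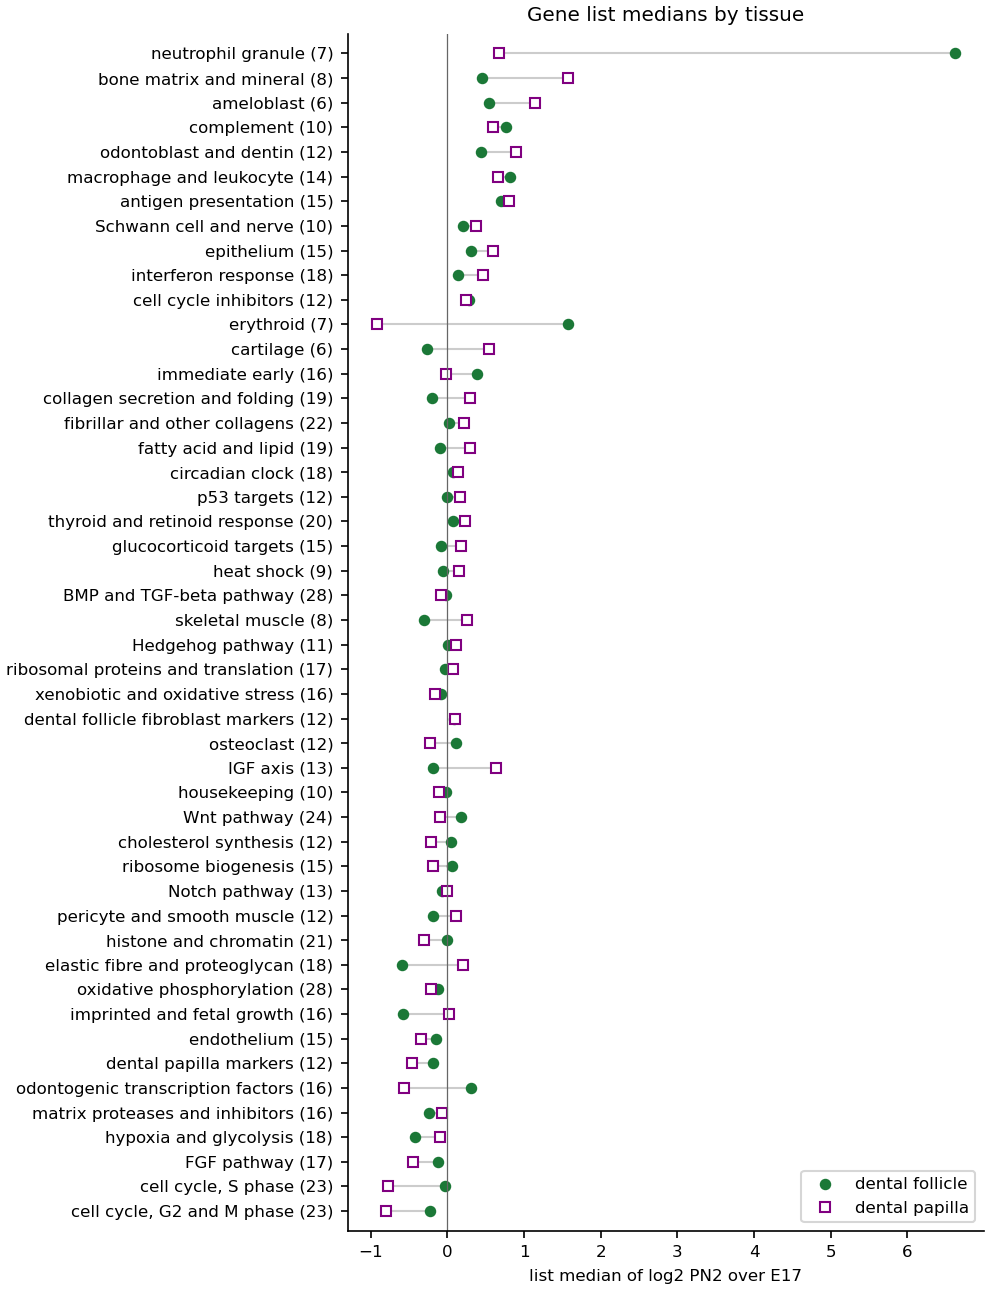
Median log2 ratio of PN2 over E17 of each gene list with 6 or more measured genes (number in brackets), with the follicle as filled green circles and the papilla as open purple squares. Complement, macrophage and antigen presentation lists lie between 0.60 and 0.82 in both tissues, mineral and odontoblast lists lie farther right in the papilla, G2 and M and S phase lists lie farther left in the papilla, and neutrophil and erythroid lists are set apart by the follicle.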

How the data were processed

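RNA of each tissue and stage is listed under 4 array titles, of Agilent arrays of 2 colours. Which columns shared a physical array cannot be told. Agilent Feature Extraction 8.5.1.1 is named in the submitters' processing notes. Per the file headers, the deposited values are linear signal intensity in columns named by tissue and stage; how background was handled is not given there. A separate deposited table holds log10 ratios, which differ from those of the signals by 1 constant per array (0.32 for DF and 0.87 for P as log2). A column is identical (100% of probes) wherever it recurs, so each was taken as 1 hybridisation. The column that should hold P E17 in the array titled P PN2-P E17 is headed DF E17 and equals DF E17, so P E17 came from the array titled DF E17-P E17.

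Of 30146 probes, 25962 had 1 symbol, 4184 none and 0 several, and 25858 were matched by gene number. Signals were turned to log2, quantile normalised over 4 columns and averaged per gene (16039 genes), keeping genes whose highest signal reached 100 (14238). The size rule is 2-fold in both tissues, with no test. limma 3.58.1 fitted stage and tissue (trended prior, Benjamini-Hochberg, adjusted p under 0.05); the number of arrays limits the precision. Scripts ran in Python 3.11.15 and R 4.3.3 and were tested on simulated data. Named genes are the 15 highest and 15 lowest shared genes at 100 or more in both tissues, leaving out clone names, 5 and 5 opposite ones, and the extremes of 52 gene lists; further members of the lists, of the 169 and of the 25 called were picked after their values were seen. Members and lists were chosen with earlier results of these data known. Normalisation, filter, floor, probe summary, threshold, tissue term and prior were varied. Promoters are from RefSeq GRCm38.p6.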

Additional observations from a re-analysis of the deposited data

Results flagged for a closer look

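The stage change had opposite signs past 2-fold in the 2 tissues for 16 of the genes named, and for each the difference, follicle ratio minus papilla ratio in log2 units, was not tested. Sex-linked genes were among them: Xist (9.42, with 7.20 in the follicle and -2.22 in the papilla), Tsix (5.61), Eif2s3y (-3.83) and Uty (-2.94). All 4 measured sex-linked genes went in opposite directions, and none contributes to the common change. Xist had 2890.4 in PN2 follicle and 827 in PN2 papilla, against 19.7 in E17 follicle and 3846 in E17 papilla. The Y-linked Eif2s3y had 181 in PN2 follicle and 221 in PN2 papilla, against 413 in E17 follicle and 35.6 in E17 papilla. The part of the sex of the animals in other stage ratios was not tested. Red cell genes were the next group, with Epb42 at 3.97, the erythroid factor Klf1 at 3.65 and the beta globin Hbb-b1 at 2.56. Slfn1 (5.002), Defb42 (3.63) and the Wnt agonist Rspo1 (3.50) were likewise higher at PN2 in the follicle and lower in the papilla. In the other direction, lower at PN2 in the follicle and higher in the papilla, were Nrk (-4.16), Abi3bp (-3.94), Kcnb2 (-3.78), the imprinted Plagl1 (-3.36), Ostn (-3.32) and osteomodulin (Omd, -2.24).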

How the results depend on the processing

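The 91 higher and 78 lower genes of the size rule became 16 and 726 without normalisation, where the median ratio of all genes was -0.51 and 2.16% of the calls were higher, against 53.8% after quantile normalisation. That share was 43.4% with median centring. A 1.5-fold threshold gave 448 and 413, a mean past 2-fold 321 and 260, the follicle alone 545 and 578 and the papilla alone 933 and 725. A signal minimum of 200 left 51 lower genes. The 14 risen and 11 fallen genes of the limma fit became 33 and 206 without normalisation, 5 and 0 with no filter (690 lower at an unadjusted p under 0.05), 6 and 7 at a minimum of 200, 7 and 2 with low signals raised to the 5th percentile, 33 and 23 with the median of probes, 39 and 21 with the brightest probe, and 7 and 5 with a robust prior. Both were 0 with median centring (750 and 572 unadjusted), with no tissue term (94 and 51) and with no trend in the prior (711 and 620). All 25 remained called with the median of probes or the brightest probe, but 23 of them have 1 probe, whose ratio these settings cannot alter. Of the 25, 13 remained called at the minimum of 200, 12 with the robust prior, 9 with raised signals and 5 with no filter. The cause was not tested. Of 1956 alternative values of 326 named genes, 270 moved beyond the spread. Changes of sign were counted only for the named genes past 2-fold in both tissues, and there 0 changed sign. By the rule their mean ratios are past 2-fold, and the median of all genes moved no further than -0.51 in any setting. The count of 0 is thus a weak check. For the other named genes they were not counted. Relative to all genes, 36 of 52 list medians kept their sign and 16 did not. The labels give no replicate numbers, so samples were paired by tissue alone. Signals near the 5th percentile, 37.9, limit the size of ratios.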
